A study of Mus musculus with 6 samples.

Results

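S100 genes encode small calcium-binding proteins, and 10 of them (S100a1, S100a3, S100a4, S100a5, S100a6, S100a8, S100a9, S100a10, S100a11 and S100a13) were followed here among the 41255 genes of a mouse lymphoid expression table. They were taken by symbol, and the list was chosen on measured values of the same contrast that is described, after S100a4 had been seen to be nearly lost in mutant cells. Their differences between the groups are therefore given as a description. Where they are counted against the threshold of the fit over all genes, the count supports nothing. The question was whether the neighbours of S100a4 in its gene cluster follow it.

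The table holds normalized read counts of polyadenylated RNA from 6 cultures of Ba/F3, a mouse lymphoid line that grows on interleukin-3. All 6 received a retroviral human RPL10 cDNA while the mouse Rpl10 transcript was knocked down with a short hairpin RNA. The cDNA was wild type in the WT group (clones 28, 29 and 36) and carried serine for arginine at residue 98, a change known from T-cell leukaemia, in the R98S group (clones 11, 13 and 35). Each culture was grown out from 1 cell and was pelleted after 5 min in 100 μg/ml cycloheximide, so that each group is 3 clones and p-values measure the spread between clones only.

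S100 proteins carry EF-hand calcium-binding loops and mostly act as dimers, which on binding calcium expose a surface that grips partner proteins. S100A4 and S100A6 bind cytoskeletal and other intracellular partners such as non-muscle myosin and calcyclin-binding protein. S100A8 and S100A9 pair as calprotectin, a product of neutrophils and monocytes that outside the cell is sensed by the Toll-like receptor TLR4 and the receptor RAGE. S100A10 is unusual in that it no longer needs calcium, and it joins annexin A2 in a membrane complex that takes up plasminogen. Most S100 genes lie on a single mouse chromosome, in blocks with other genes between them.

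Recovered depth ranged from 21786776 to 24204991 reads per library, and 3 reads, taken as the floor, were worth 2.78 to 3.22 normalized counts. The mouse Rpl10 row, to which reads of the human cDNA may also map, ranged from 1900 to 3156 in WT and from 1883 to 3028 in R98S and did not differ past the threshold (limma, adjusted p = 0.871). Genes of the interleukin-3 receptor summed to 87940 to 104000 in WT and 130700 to 154300 in R98S. That sum is nearly all Csf2rb and Csf2rb2, which rose by 0.53 and 0.62 on the log2 scale (limma adjusted p = 0.0509 and 0.0178). Il3ra did not rise, at 794.1 on average in WT and 698.4 in R98S (log2 difference -0.18, limma adjusted p = 0.432). Among markers of the pro-B and B lineage, Cd79a and Cd79b passed the filter on low values, while Pax5, Vpreb1, Igll1, Rag1 and Dntt were at or under the floor in every library. Cd79b rose from 258.1 ± 128 to 572.0 ± 166 on average (SD, n = 3; log2 difference 1.22, limma adjusted p = 0.0617). Its groups overlapped, with WT clone 28 at 396.3 and R98S clone 35 at 385.8. R98S clone 13 lay closest to WT for several of the genes below. In bulk RNA, fewer cells expressing a gene and less RNA per cell cannot be told apart.

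All 10 genes lie on chromosome 3 of the GRCm38 build, in 2 blocks. The first block runs from S100a1 (chr3:90511034-90514392, minus strand) and S100a13 (chr3:90514435-90524581) through S100a3 (chr3:90560578-90602702), S100a4 (chr3:90603771-90606045), S100a5 (chr3:90608523-90611780) and S100a6 (chr3:90612882-90624181) to S100a8 (chr3:90668978-90670035) and S100a9 (chr3:90692632-90695721, minus strand). S100a11 (chr3:93520488-93526287) and S100a10 (chr3:93555080-93564643) form the second block, 2.91 and 2.95 Mb from S100a4. Exons of S100a4 share 302 bases with Gm42674, an annotated gene on the same strand that has no row in the table. S100a3 shares 144 exon bases with Gm42674 and 117 with the small nuclear RNA gene Gm23464 on the other strand, so reads of these genes cannot be fully told apart.

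The sequence just upstream of the start is shown for 4 genes of the first block that were nearly lost in R98S cells, with S100a11, which kept much of its RNA, as a contrast. The stretches are read 5′ to 3′ from the RefSeq promoter table (GRCm38.p6), end within 120 bases before the RefSeq start, and leave out bases that the GENCODE annotation puts in exons of the gene. For S100a8, where the annotated exon reaches further upstream, 30 bases around the motif are shown. Capitals mark TATAAA and every CG pair.
S100a4, chr3:90603650-90603769, plus strand: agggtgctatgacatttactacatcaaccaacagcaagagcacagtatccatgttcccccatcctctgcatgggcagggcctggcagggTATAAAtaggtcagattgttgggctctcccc
S100a6, chr3:90612774-90612881, plus strand: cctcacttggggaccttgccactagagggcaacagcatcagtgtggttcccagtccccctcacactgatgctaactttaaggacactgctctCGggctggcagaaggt
S100a8, chr3:90669031-90669060, plus strand: agctttcctcTATAAAagcagctgacactt
S100a9, chr3:90695722-90695841, minus strand: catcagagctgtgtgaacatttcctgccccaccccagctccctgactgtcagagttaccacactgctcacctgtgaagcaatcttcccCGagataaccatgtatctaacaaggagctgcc
S100a11, chr3:93520376-93520487, plus strand: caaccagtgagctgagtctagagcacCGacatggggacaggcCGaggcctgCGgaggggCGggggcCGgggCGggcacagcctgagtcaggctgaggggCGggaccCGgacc
The printed S100a4 stretch held no CG and a TATAAA starting 31 bases before the RefSeq start, and that of S100a8 held a TATAAA 30 bases before its start. The printed stretches of S100a6 and S100a9 held 1 CG pair each and no TATAAA. The 112 bases of S100a11 held 8 CG pairs and, like those of S100a6 and S100a9, no TATAAA.

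RefSeq promoter windows of 300 bases (250 before and 50 after the start) were found for 9 of the 10 genes, all but S100a10. CG pairs numbered 2 in S100a4 and S100a9, 3 in S100a5, 4 in S100a8, 6 in S100a6 and 0 to 5 at the 4 annotated starts of S100a3. They numbered 11 in S100a1, 14 in S100a13 and 15 in S100a11, against a median of 7 over 32851 windows, of which 23.3% held at most 2. The windows of S100a1 and S100a13 overlap, since both genes start from the same short interval on opposite strands. On either strand, TATAAA stood in the windows of S100a4, S100a8, S100a9 and 1 start of S100a3 (13.6% of all windows). In S100a9 it stood at the RefSeq start itself and not upstream of it. The AP-1 motif TGANTCA stood only in that of S100a11 among these genes (7.81% of all windows). The letters AGATAA, which GATA factors bind, stood in S100a9 and S100a11 (11.2%), and CCAAT in S100a5, S100a6 and 1 start of S100a3 (37.4%). GAGGAA, an ETS motif, was found in S100a3, S100a4, S100a8 and S100a11 (28.3%), and GGGCGG in S100a3, S100a9 and S100a11 (35.7%). A match of letters is not a bound site.

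S100a4 encodes metastasin, a partner of non-muscle myosin heavy chain. For WT clones 28, 29 and 36, in that order, its normalized count was 5583, 2164 and 1194. For R98S clones 11, 13 and 35 it was 0, 2.04 and 2.78. The gene was well expressed in every WT clone, highest in clone 28, and at or under the floor in every R98S clone. From 8659 summed reads against 5, the level in WT was 1860 times that in R98S (95% exact counting interval 798 to 5740), and the log2 difference was -10.08 ± 0.65 (SE) on the log2(normalized count + 1) scale. Counting intervals here cover the counting of reads and not the spread between clones.

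S100a6 encodes calcyclin, and its gene starts next after S100a5 downstream of S100a4. It measured 2172, 51.6 and 6.005 in the WT clones and 0, 2.04 and 0 in the R98S clones. The groups did not overlap, but WT clone 36, with 6 reads, sat just above the R98S clones. The summed reads, 2175 against 2, gave a ratio of 1170 (interval 323 to 9670) that rests on clone 28, and the log2 difference was -6.0 ± 1.8 (SE). That difference was -3.73 without WT clone 28, -7.87 without WT clone 36 and -9.91 with edgeR on the recovered reads.

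S100a8 and S100a9 encode the subunits of calprotectin. S100a8 measured 63.5, 92.4 and 7.01 in WT and 0.938, 0 and 0 in R98S. S100a9 measured 119.8, 207.4 and 10.01 in WT and 0, 1.02 and 2.78 in R98S. For both genes WT clone 29 was highest, WT clone 36 was lowest and no R98S clone passed the floor. The WT level was 167 times the R98S level for S100a8 (155 reads against 1, interval 29.5 to 6630) and 86.1 times for S100a9 (320 against 4, interval 33.3 to 318). Both ratios rest on WT clones 28 and 29, since clone 36 had only 7 and 10 reads. The log2 differences were -4.87 ± 0.91 and -5.05 ± 1.1 (SE).

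S100a5, which lies between S100a4 and S100a6, was rare. It measured 13.3, 2.15 and 7.01 in WT and 0, 0 and 0.925 in R98S, or 22 reads against 1 (ratio 23.7, interval 3.83 to 977), and it was too low to enter the fit. S100a3, whose annotated end lies 1.1 kb upstream of S100a4, had at most 2 reads in every library, so a difference was not detectable at this depth.

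S100a1 and S100a13, at the near end of the same block, kept their RNA. S100a1 is best known from heart muscle, where it acts on calcium release. It measured 2126, 2417 and 1557 in WT and 1769, 1370 and 1350 in R98S, with groups that overlapped and a log2 difference of -0.43 ± 0.18 (SE). S100a13, linked to the release of growth factors that lack a signal peptide, measured 681, 820 and 707 in WT and 830, 867 and 701 in R98S. Its groups overlapped too, at an R98S level 1.09 times that of WT (log2 difference 0.12 ± 0.14, SE). Thus within 89.4 kb on one side of S100a4 the well-expressed S100a1 and S100a13 overlapped between the groups. On that same side the rare S100a2, given below, did not overlap. Within 86.6 kb on the other side, S100a5, S100a6, S100a8 and S100a9 were each at or under the floor in R98S.

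The genes of the second block were lower in R98S cells without being lost. S100a10 measured 6496, 6750 and 6785 in WT and 3561, 3349 and 2987 in R98S. The clones of each group lay close together and far from the other group, at an R98S level 0.494 times that of WT (log2 difference -1.02 ± 0.10, SE). S100a11, a partner of annexins, measured 1601, 1695 and 2094 in WT and 968, 1318 and 939 in R98S. The groups did not overlap, with R98S clone 13 nearest to WT, and the R98S level was 0.598 times that of WT (log2 difference -0.75 ± 0.17, SE). The ratio of S100a10 to S100a11 counts, not corrected for length, was 3.24 to 4.06 in WT and 2.54 to 3.68 in R98S, ranges that overlapped.

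**Figure D1:**
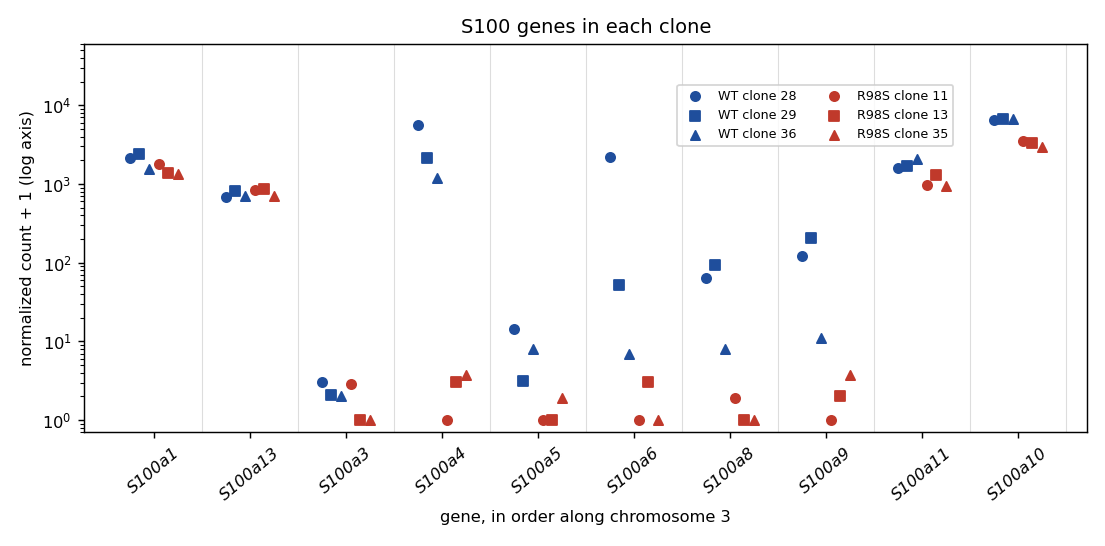
Normalized count + 1 (log axis) of the 10 S100 genes in order along the chromosome, 1 point per clone, WT in blue and R98S in red. S100a4, S100a6, S100a8 and S100a9 are at or under 3 reads in every R98S clone, S100a10 and S100a11 are lower but present, and S100a1 and S100a13 overlap between groups.

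Of the 10 genes, 8 averaged at least 10 normalized counts over the libraries and entered the fit over 11550 genes. At an adjusted p under 0.1 (limma), 6 passed the threshold, all lower in R98S: S100a4, S100a6, S100a8, S100a9, S100a10 and S100a11. Over all tested genes 23.9% passed in either direction and 13.1% were lower. The same 6 did not overlap between the groups, as was the case for 37.3% of all tested genes. Nothing is read from these counts, because the genes were chosen with this contrast known. The call of S100a6 was lost when WT clone 29, R98S clone 11 or R98S clone 35 was left out, and S100a1 passed only without WT clone 36. The median log2 difference of the 8 genes was -2.94 (-2.95 with the genes near 0 in R98S set to the lower end of their counting intervals), beside -0.011 over all tested genes. No gene lay near that median, since none fell between S100a8 at -4.87 and S100a10 at -1.02.

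Per kilobase of exon, the order of levels in WT cells was S100a10, S100a4, S100a11, S100a1, S100a13, S100a6, S100a9, S100a8, S100a5 and S100a3. S100a10 stood at 5509 ± 130 (SD, n = 3) normalized counts per kb and S100a4 at 5103 ± 3950, a spread from 2044 to 9560 that spans S100a10, S100a11 (3515 ± 512) and S100a1 (2930 ± 630), the last 2 of which overlapped. S100a13 followed at 1029 ± 103, and the range of S100a6, 4.39 to 1589 per kb, crossed that of S100a13 and of every gene below it except S100a3. In R98S cells S100a10 led at 2722 ± 239 per kb with a range that met those of S100a1 (2156 ± 340) and S100a11 (2104 ± 412), S100a13 stood at 1118 ± 121, and no other member exceeded 5.32 per kb in any clone.

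Among the WT clones, which share their labelled genotype, the lost genes varied far more than the retained ones. The highest WT clone exceeded the lowest, on normalized count + 1, by 310 times for S100a6, 18.9 times for S100a9, 11.7 times for S100a8 and 4.67 times for S100a4, beside a median of 1.23 over all tested genes and 1.04 for S100a10. A ratio as large as that of S100a6 was seen for 0.0433% of tested genes. These are 5 genes, namely Clmp, Creb5, Oaf, Gzmb and S100a6 itself, and the other four were picked out only after their values were seen. The lost genes did not vary as a unit: the ratio of S100a4 to S100a6 counts, not corrected for length, was 2.57, 42.0 and 199 in clones 28, 29 and 36, whereas that of S100a9 to S100a8 was 1.89, 2.24 and 1.43. Clone 28 was highest for S100a4 and S100a6 and clone 29 for S100a8 and S100a9, while clone 36 was lowest for all of these.

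Other S100 genes, S100a2, S100a7a, S100a14, S100a16, S100b, S100g and S100z, had at most 5 reads in every library. S100a2 (chr3:90590247-90591508), whose annotated span overlaps that of S100a3, lies on the S100a1 side of S100a4. It had 5, 5 and 3 reads in WT and 1, 0 and 1 in R98S. These were 13 reads against 2 (ratio 6.99, interval 1.58 to 63.8), and the groups did not overlap. S100a7a, between S100a6 and S100a8, was at or under the floor in both groups.

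Genes flanking S100a4 that are no S100 gene were tested for the same contrast. Of 42 such genes within 1 Mb, 23 passed the filter on low values, all on the S100a1 side, and 3 passed the test (13.0%, beside 23.9% over all genes) with a median log2 difference of -0.21. Snapin, for a protein of the SNARE and lysosome transport machinery, fell from 1662 ± 23.2 to 1162 ± 127 (SD, n = 3; log2 difference -0.52, limma adjusted p = 0.0235). Gatad2b, for a subunit of the NuRD chromatin complex, fell by 0.36 on the log2 scale (limma adjusted p = 0.0717) and 4632404H12Rik rose by 0.73 (limma adjusted p = 0.0552). The last 2 calls were lost when WT clone 28, WT clone 29, R98S clone 11 or R98S clone 35 was left out.

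The nearest tested gene, Chtop, which encodes an mRNA export factor and lies next to S100a1, measured 4995 ± 220 in WT and 4761 ± 442 in R98S (SD, n = 3; log2 difference -0.072, limma adjusted p = 0.674). The RNA-binding factor gene Ilf2 (-0.17, limma adjusted p = 0.408), the natriuretic peptide receptor gene Npr1 (0.19, adjusted p = 0.705) and the Integrator subunit gene Ints3 (0.24, adjusted p = 0.212) did not pass either. The number of flanking genes called moved from 3 to 8 when R98S clone 13 was left out, where 3219 of all 11521 tested genes were called. It was 5 without WT clone 36 (2514 of all 11548) and 1 without any of the other clones (1327 to 2007 over all genes). Whether flanking genes were called less often than other genes therefore depended on the clones used. Within 2 Mb, 9 of 52 tested genes passed (17.3%).

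On the S100a9 side the nearest tested gene is the pseudogene Rplp0-ps1 at 2.67 Mb, whose reads may be shared with Rplp0. It and Hrnr (2.71 Mb), Them4 (3.70 Mb), Mrpl9 (3.84 Mb) and Snx27 (3.89 Mb) did not pass, with log2 differences of 0.50, 0.087, -0.49, -0.23 and -0.019 (limma adjusted p from 0.274 to 0.92). Of these, Rplp0-ps1 and Hrnr flank the S100a11 and S100a10 pair on one side and Them4, Mrpl9 and Snx27 on the other. Beyond them, looked at after the values were seen, Tuft1 fell by 0.95 (limma adjusted p = 0.0836) and Selenbp2 by 1.71 (limma adjusted p = 0.0418) on the log2 scale.

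**Figure D2:**
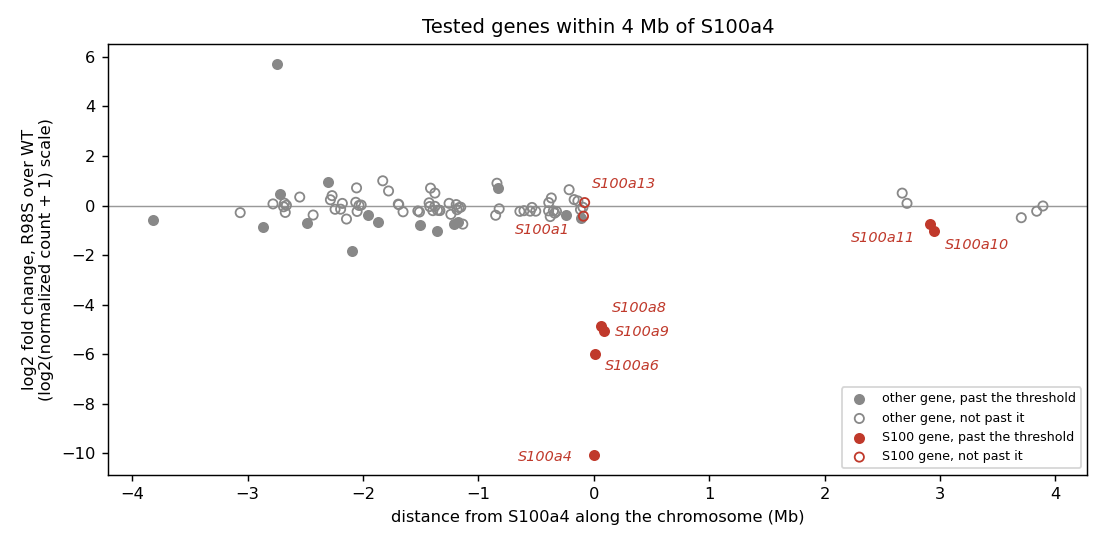
Log2 fold change of R98S over WT (log2(normalized count + 1) scale) for tested genes within 4 Mb of S100a4, by distance from it. S100 genes are red, others grey, and filled points passed an adjusted p under 0.1. S100a4, S100a6, S100a8 and S100a9 lie between -10.08 and -4.87, while Chtop and the retained S100a1 and S100a13 next to them lie between -0.43 and 0.12.

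S100 proteins work through partners, so 30 genes for their binding partners and receptors were read from the same fit. In all 23 were tested and 13 passed, 10 lower and 3 higher in R98S (56.5%, beside 23.9% over all genes), with a median log2 difference of -0.18. Of the 13 calls, 7 held whichever clone was left out, namely Anxa2, Ahnak, Myh9, Bsg, Tlr4, Plaur and Trp53.

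Anxa2, whose protein forms the plasminogen-binding complex with S100A10, measured 20570, 22440 and 15840 in WT and 5759, 8359 and 4275 in R98S. Every R98S clone was under every WT clone, and Anxa2 fell by 1.72 on the log2 scale (SE 0.24, limma adjusted p = 0.0048). Ahnak, for a giant scaffold that binds the S100A10 and annexin A2 complex, measured 739.3, 878.0 and 821.6 in WT and 21.6, 88.8 and 26.8 in R98S. It fell by 4.40 on the log2 scale (SE 0.46, limma adjusted p = 0.00139), the largest difference among the tested partners in this fit. Without R98S clone 13 the log2 difference of Ahnak was -5.02. Plaur, the urokinase receptor of the same plasminogen system, fell from 449.9 ± 171 to 127.7 ± 52.0 (log2 difference -1.80, limma adjusted p = 0.0187), and Plgrkt, another plasminogen receptor, rose by 0.58 (limma adjusted p = 0.031), a call lost without WT clone 28, WT clone 29 or R98S clone 11.

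Among genes for receptors of extracellular S100 proteins, Tlr4 measured 1368, 1431 and 854.7 in WT and 404.4, 363.3 and 520.9 in R98S. It fell by 1.48 on the log2 scale (SE 0.23, limma adjusted p = 0.00666). Bsg, which encodes basigin, a receptor for S100A9, fell from 16310, 16680 and 15440 to 9273, 9296 and 8646, or by 0.83 (SE 0.096, limma adjusted p = 0.00213). Cd33, for a sialic acid-binding receptor that S100A9 engages, measured 42.0, 162.3 and 50.04 in WT and 0, 26.5 and 9.25 in R98S (log2 difference -3.44, limma adjusted p = 0.0742), and it kept its call only where R98S clone 13 was the one left out. Its log2 difference was then -4.47, and -2.08 without R98S clone 11. Ager, the gene of RAGE, stood at 32.5 and 38.7 on average (limma adjusted p = 0.899), and Tlr2 at 382.7 and 295.8 (adjusted p = 0.377).

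For intracellular partners, Myh9, the heavy chain of non-muscle myosin IIA that S100A4 binds, fell by 0.85 on the log2 scale (limma adjusted p = 0.0219). Myh10, for the IIB chain, was low and did not pass (-0.03, limma adjusted p = 0.961). Cacybp, for the calcyclin-binding protein, rose by 0.66 (limma adjusted p = 0.0353), a call lost without WT clone 28, and Trp53, whose protein several S100 proteins bind, rose by 0.51 (limma adjusted p = 0.0156). Anxa5 fell by 0.77, Ezr by 0.35 and Nucb1 by 0.49 (limma adjusted p = 0.0803, 0.0819 and 0.0691), each losing its call without WT clone 28, without WT clone 29 and without other clones in turn. Without R98S clone 13, the log2 difference of Anxa5 was -1.11 (limma adjusted p = 0.00244), and it ranged to -0.59 (adjusted p = 0.215) without R98S clone 35. Anxa6, Anxa11, Sugt1, Mdm2, Ppp5c, Iqgap1 and Stub1 did not pass, and Anxa1, Cd36, Plat, Dlc1, Fgf1, Il1a and Syt1 were too low to test.

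**Figure D3:**
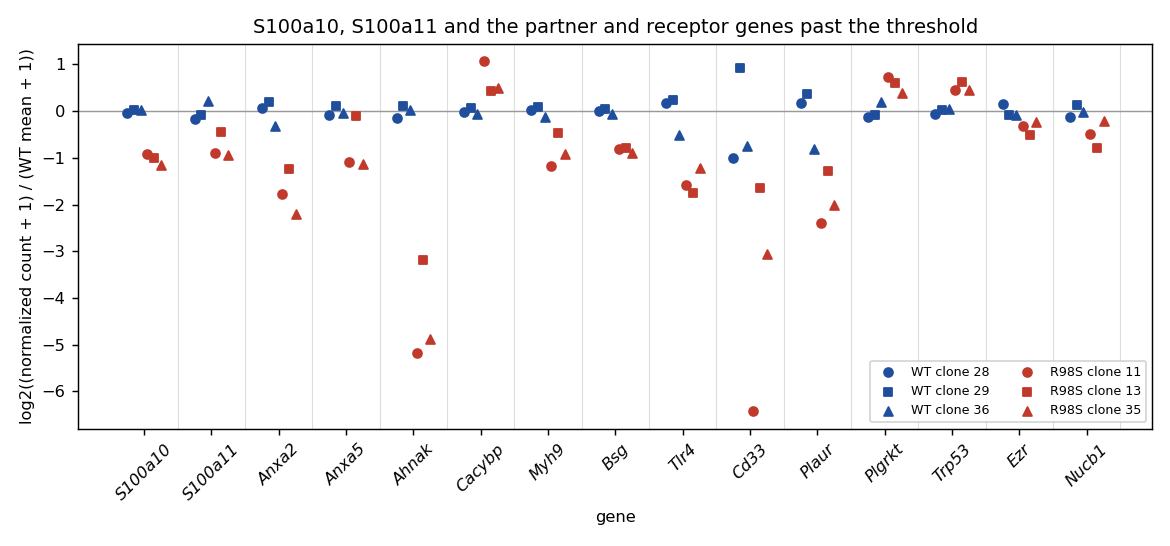
Log2 of (normalized count + 1) over (WT mean + 1) in each clone, WT in blue and R98S in red, for S100a10, S100a11 and the 13 partner and receptor genes past the threshold. The R98S clones lie furthest under WT for Ahnak, Cd33, Plaur and Anxa2, S100a10 is under WT in every R98S clone, and for Anxa5 R98S clone 13 sits next to the WT clones.

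Since S100a8 and S100a9 are neutrophil genes, markers of other blood cells were read beside them. Of 8 neutrophil markers, 3 were tested and 2 fell, beside 13.1% of all tested genes that were called lower. Ngp went from 19.5, 103.2 and 19.0 in WT to 2.82, 8.17 and 4.63 in R98S (limma adjusted p = 0.0429) and Mmp8 from 16.4, 45.1 and 16.0 to 0.938, 0 and 7.40 (limma adjusted p = 0.0361). Both were highest in WT clone 29, as were S100a8 and S100a9. The third, Cxcr2, did not pass (log2 difference 0.47, limma adjusted p = 0.406). It measured 350.2, 314.9 and 864.7 in WT, highest in clone 36, and 600.5, 783.8 and 542.1 in R98S. Another 3 markers were too low to test and did not overlap between the groups. The share of 37.3% without overlap covers tested genes only, so it is no measure for these. For Lcn2 and Mpo the lowest WT clone had 2 reads and the highest R98S clone 1, both under the floor. Lcn2 had 8, 24 and 2 reads in WT and 1, 1 and 0 in R98S, Ltf had 6, 25 and 15 against 0, 2 and 4, and Mpo had 12, 5 and 2 against 0, 1 and 0. Lcn2 and Ltf were highest in WT clone 29, and Mpo in WT clone 28. Elane and Camp were at or under the floor in every library, and the summed level of the 8 markers, mostly Cxcr2, was 416.8 to 923.7 in WT and 560.6 to 798.1 in R98S.

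Of 6 macrophage markers in the table, 2 were tested. Lyz2 measured 4.10, 24.7 and 43.0 in WT, highest in clone 36, and 0.938, 0 and 1.85 in R98S. Lyz2 fell by 3.34 on the log2 scale (limma adjusted p = 0.0366), Cd68 did not pass (adjusted p = 0.454), C1qa and Mrc1 were at or under the floor, and the sum was 164.9 to 270.8 in WT and 90.1 to 251.1 in R98S. Of 7 mast cell and basophil markers none of 4 tested passed (sum 227.3 to 397.6 in WT, 217.4 to 619.9 in R98S), with Kit, Fcer1a and Prss34 at or under the floor. The 4 T cell markers summed to 10.8 to 22.0 in WT and 45.9 to 92.0 in R98S, with Cd3e and Cd4 at or under the floor, and Cd3d rose by 2.17 on the log2 scale (limma adjusted p = 0.0112). The 4 fibroblast markers, none of them tested, summed to 6.14 to 21.5 in WT and 9.25 to 17.4 in R98S. The part of such cells or programmes in the S100 differences was not tested.

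The genes whose profile over the 6 libraries lay nearest to that of S100a4, by Euclidean distance between centred log2 values among 9503 genes with a mean of at least 100, were on 5 chromosomes. Olfm3, for a secreted olfactomedin, also on chromosome 3 but outside the 1 Mb flanks, was nearest (distance 2.07), at 2564, 1288 and 1051 in WT and 1.88, 2.04 and 3.70 in R98S. Its WT clones had the same order as those of S100a4, as did those of F13a1 and Spp1. Nothing is read from that order, because the genes were chosen by nearness over these same values, WT clones included. F13a1, the transglutaminase subunit of clotting factor XIII, was next (distance 3.25) at 18830, 18060 and 14500 against 3.75, 1.02 and 17.6. Spp1, which encodes osteopontin (3.29), Cask, a membrane scaffold gene (3.71), and Rnf217, for a ubiquitin ligase (4.01), completed the list. Spp1 kept 74.1, 107.2 and 544.9 normalized counts in R98S cells, unlike S100a4.

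**Figure D4:**
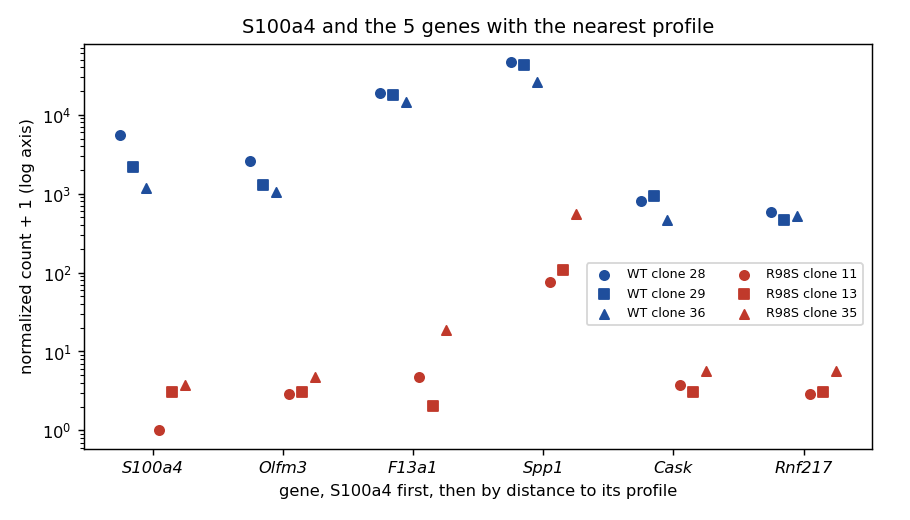
Normalized count + 1 (log axis) of S100a4 and the 5 genes with the nearest profile, 1 point per clone, WT in blue and R98S in red. The WT clones keep the order 28, 29, 36 in S100a4, Olfm3, F13a1 and Spp1, and all R98S clones of S100a4 and Olfm3 lie under 5 on this scale. The genes were chosen by nearness over these same values.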

How the data were processed

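Polyadenylated RNA of 3 WT and 3 R98S Ba/F3 clones was sequenced from stranded libraries. The authors removed ribosomal and transfer RNA reads, aligned to mm10 with TopHat, kept mapping quality of at least 10 and counted reads per gene. The submitters' processing notes name Bowtie2, TopHat, SAMtools, HTSeq and DESeq2. The annotation and strand setting of counting are not given in the sources used here. The deposited signal per gene is a read count that the authors scaled by each library's size factor. In each library 100% of values above 0 were whole multiples of 1 step (tolerance 0.01), which gave back the reads.

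Differences were tested with limma 3.58.1 (R 4.3.3), with an intensity trend, on log2(normalized count + 1) for genes with a mean of at least 10, two-sided with Benjamini-Hochberg adjustment and a threshold of 0.1. This scale understates changes of low genes. edgeR 4.0.16 and DESeq2 1.42.0 on recovered reads were alternatives, as were other pseudocounts, filters, scalings and leaving out each clone, and the fit was tested on simulated data. Intervals on read ratios are exact binomial (95%) on summed reads. Positions and exon lengths are from GENCODE (GRCm38), matched by symbol. All 10 genes, other S100 genes, listed partners and markers, the 5 nearest tested genes on each side of S100a4, called genes within 1 Mb and the 5 nearest profiles are named by rule, with exceptions stated. Genes and lists were chosen with earlier results of these data known.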

Additional observations from a re-analysis of the deposited data

How the results depend on the processing

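No paired analysis was possible because no clone number is shared by the groups. The number of genes called was 1722 at an adjusted p under 0.05 and 1327 to 3219 on leaving out single clones, lowest without WT clone 28 and highest without R98S clone 13. It was 1464 without WT clone 29 and 1578 without R98S clone 11. The S100 genes called numbered 5 to 7 without single clones. Their median log2 difference was -3.48 to -2.38 without single clones, -2.02 with a pseudocount of 5, -1.77 with no filter, -1.02 with a minimum mean of 50, -3.65 with edgeR and -3.73 with DESeq2. The filters change which S100 genes enter it, and the other scales treat near-0 genes differently. S100a6 also lost its call with a pseudocount of 5, with no intensity trend and at 0.05, and DESeq2 gave it no adjusted p. Flanking genes called numbered 1 to 8 without single clones, 5 with DESeq2, 1 at 0.05 and 9 within 2 Mb. Partner genes called numbered 7 to 12 without single clones: 7 without WT clone 28 and 8 without WT clone 29 or R98S clone 11. The cause of these shifts was not tested.

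Of 682 values for 43 single genes under alternatives, 603 kept direction and side of the threshold, 52 lost the call, 4 gained it and 23 turned direction, the last all in genes that had not passed. On the log2 scale, leaving out single clones gave ranges of -0.48 to 0.008 for Anxa6, -0.23 to 0.029 for Anxa11, -0.28 to 0.22 for Myh10, -0.17 to 0.62 for Ager, -0.10 to 0.25 for Mdm2, -0.00082 to 0.073 for Ppp5c, -0.052 to 0.22 for Iqgap1, -0.15 to 0.45 for Npr1, -0.37 to 0.46 for Hrnr and -0.086 to 0.027 for Snx27. Scaling to the same upper quartile gave 0.011 for Myh10 and 0.022 for Snx27, and to the same total 0.0012 for Snx27. Of the genes called 45% lay higher in R98S, and 52.2% after scaling to the same upper quartile. Depth limits S100a3, S100a5 and every gene near 3 reads, for which a smaller change was not detectable.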
